A study of Mus musculus with 6 samples.

Results

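The genes described here encode the glutathione, glucuronosyl and sulfo transferases, the enzymes that attach glutathione, glucuronic acid or sulfate to foreign and endogenous compounds. They were chosen by symbol from the deposited gene table: Gst followed by a, k, m, o, p, t or z and a digit, Ugt1 and Ugt2, and Sult1 to Sult6, with pseudogene symbols left out. Of 34745 genes in the table, 59 carried such a symbol, and the 46 with at least 10 counts over the 6 libraries are described: 20 glutathione, 16 glucuronosyl and 10 sulfo transferases. RNA was sequenced from mouse cells labelled as liver sinusoidal endothelial cells (LSECs), the lining cells of the liver's blood spaces. The mice were Tgfbr2f/f (f/f; the sample titles write WT) or carried an endothelial-specific knockout of Tgfbr2 (ECKO), the type II receptor for TGF-beta, and the f/f mice were littermates. Every mouse in both groups had received the hepatotoxin carbon tetrachloride (CCl4) by intraperitoneal injection, 2 injections per week for 6 weeks, and no group without CCl4 is analysed here. There were 3 libraries per genotype. The sources used here do not give the Cre driver, the deleted exons, the way the LSECs were isolated, or the age and sex of the mice.

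Conjugation is the second step of detoxification in liver: a compound that already carries, or has been given, a reactive group is joined to a large polar partner, which makes it soluble and lets transporters carry it into bile or blood. Glutathione transferases use the tripeptide glutathione to quench electrophiles, glucuronosyl transferases of the endoplasmic reticulum use UDP-glucuronic acid, and cytosolic sulfotransferases use the sulfate donor PAPS. Hepatocytes are a main site of many of these enzymes, some of which differ in level between male and female mice and between zones of the liver lobule.

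Total counts were 17632271 to 25062755 in the f/f libraries and 17171850 to 18671217 in the ECKO libraries, and the conjugation genes took 0.0593% to 0.0876% of a library. CPM are counts relative to library size after scaling by TMM, a method that sets the libraries on 1 scale by the bulk of their genes. The largest amount that a count of 0 allows, 3 counts, was 0.124 to 0.2 CPM depending on the library, and it covers counting error only. The targeted gene, Tgfbr2 (chromosome 9, 116087698 to 116175363, minus strand), measured 387, 442 and 452 CPM in f/f and 498, 487 and 511 CPM in the libraries labelled ECKO (edgeR quasi-likelihood adjusted p = 0.228). Counts over the whole gene cannot check a deletion of unstated exons, so ECKO below means the libraries with that label. The 20 LSEC markers together held 34470 to 44580 CPM and the 29 hepatocyte markers 1407 to 3030 CPM, with overlapping groups for both sums. Mitochondrial genes took 23.5%, 14.2% and 11.5% of the f/f counts and 32.4%, 19.7% and 23.7% of the ECKO counts. Whether the 3 libraries of a group are 3 mice is not stated, so p-values measure the spread between these libraries, which may be technical. The smallest exact permutation p that 3 libraries against 3 allow for a single value is 0.1. In bulk RNA of this kind, fewer cells of a type and less RNA per cell cannot be told apart.

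Gstp1, the pi class glutathione transferase, was the most abundant conjugation gene per unit of length, with a mean of 149.7 FPKM (fragments relative to gene length and sequencing depth) over the 6 libraries. It was followed on that scale by Gstm1 at 46.3, Sult1a1 at 35.2, Gstm2 at 29.0, Gstz1 at 21.6 and Gsto1 at 17.3 FPKM. The most abundant glucuronosyl transferase, Ugt2b5, reached a mean of 2.41 FPKM, followed by Ugt2b36 at 1.79 and Ugt2a3 at 1.45 FPKM. The glutathione and sulfo transferases each had 1 leading gene, while the glucuronosyl transferases were low throughout, as the plot of FPKM by gene shows.

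**Figure D1:**
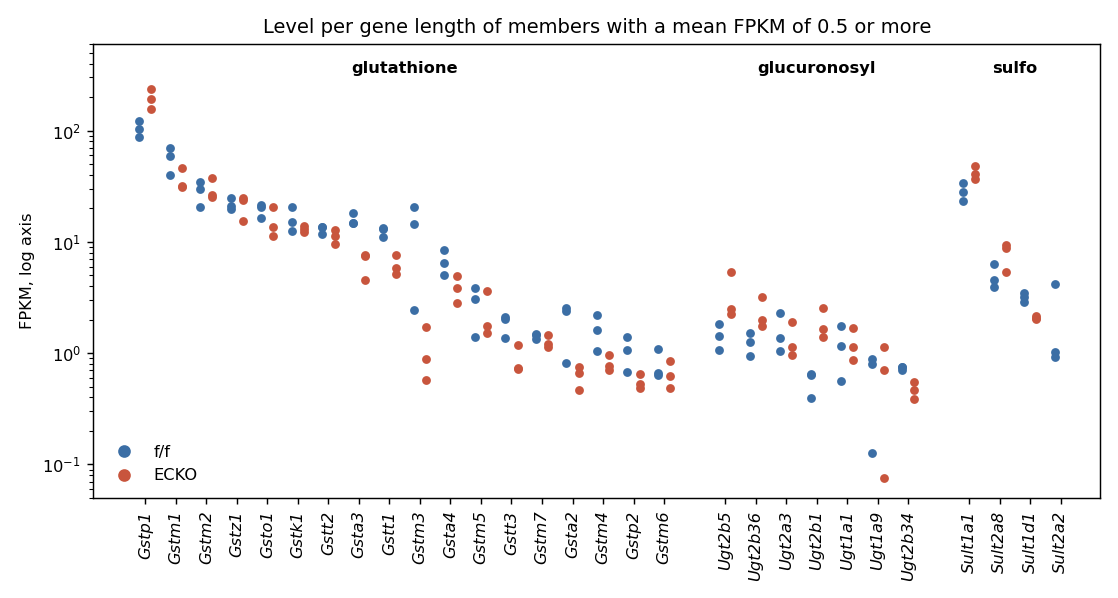
FPKM (log axis) of the conjugation genes with a mean of at least 0.5 FPKM, in order of mean within each superfamily, with 1 point per library (3 f/f, blue; 3 ECKO, red) and values of 0 not drawn. Gstp1 stands highest at a mean of 149.7 FPKM. The ECKO points lie above the f/f points for Gstp1, Sult1a1, Ugt2b1, Ugt2b5 and Ugt2b36, and below them for others, Gsta3 and Gstt1 among them.

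In the libraries labelled ECKO, 3 conjugation genes rose and 3 fell. Gstp1, the sulfotransferase Sult1a1 and the glucuronosyl transferase Ugt2b1 rose 2.21-fold, 1.75-fold and 3.79-fold. Gsta3 and Gstt1, of the alpha and theta classes of glutathione transferases, fell, as did Ugt1a7c, a glucuronosyl transferase of the UGT1A family. These are calls at an adjusted p under 0.05 in edgeR's quasi-likelihood test, adjusted by Benjamini-Hochberg over all 13692 genes tested. Of the 46 genes, 34 had enough counts to be tested (17 glutathione, 11 glucuronosyl and 6 sulfo transferases). The 3 higher made up 8.82% of the 34, against 1.24% of all genes tested, and the 3 lower also 8.82%, against 2.79%; in both directions together 4.03% of all genes were called. The other 28 did not pass.

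Direction was mixed within the set. Of the 34 tested, 13 had a log2 fold change above 0 and 21 below, and their median was -0.11, beside 0.01 over all genes. All 3 ECKO libraries lay below all 3 f/f libraries for 11 of the 34 (32.4%, against 15.2% of all genes) and above them for 5 (14.7%, against 15.7%). The median log2 fold change was -0.15 for the glutathione, -0.07 for the glucuronosyl and -0.16 for the sulfo transferases. The 46 genes summed to 689 ± 61.2 CPM in f/f and 768 ± 119 CPM in ECKO (mean ± SD, n = 3 for both), with overlapping groups. Scaling by total count in place of TMM moved the median of all genes to -0.22, and the values here are relative to the TMM scale.

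**Figure D2:**
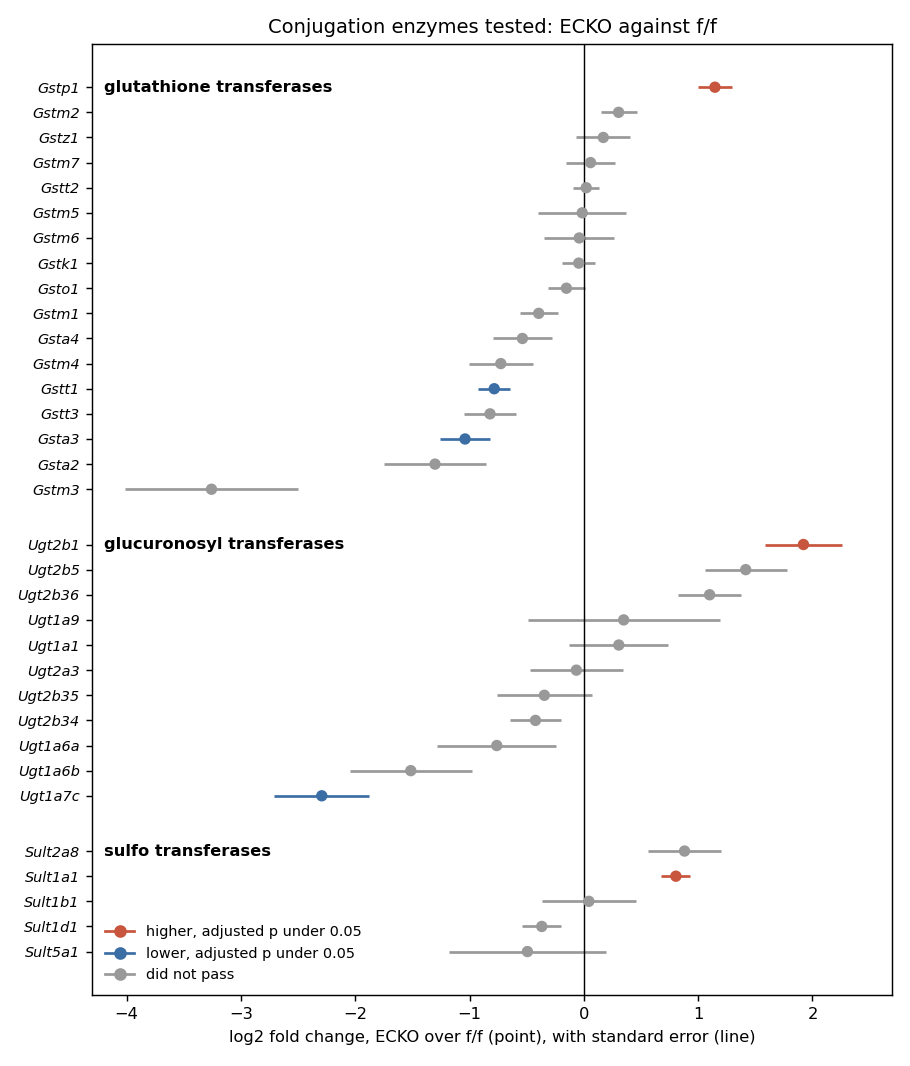
Log2 fold change of ECKO over f/f with its standard error for 33 of the 34 tested conjugation genes, grouped by superfamily and ordered by value; Sult2a2 is left out because its ECKO libraries held 0 counts. The 3 that rose (red) are Gstp1, Ugt2b1 and Sult1a1 and the 3 that fell (blue) are Gstt1, Gsta3 and Ugt1a7c, each superfamily having values on both sides of 0.

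Promoters of the genes that passed were searched for motifs of factors known to act on such genes: the antioxidant response element core that NRF2 binds, the core bound by the aryl hydrocarbon receptor, and sites of HNF1 and HNF4, both hepatocyte factors. RefSeq promoters on GRCm38.p6 (250 bases before to 50 after a gene's start) were found for 40 of the 46 genes, 51 promoters in all. The promoters of Gstp1 (chr19:4037863-4038162, minus strand), Gsta3 (chr1:21240335-21240634, plus strand) and Sult1a1 (chr7:126676369-126676668, minus strand) are shown 5′ to 3′ because these are the most abundant genes that rose or fell. Capitals mark the matches.
Gstp1: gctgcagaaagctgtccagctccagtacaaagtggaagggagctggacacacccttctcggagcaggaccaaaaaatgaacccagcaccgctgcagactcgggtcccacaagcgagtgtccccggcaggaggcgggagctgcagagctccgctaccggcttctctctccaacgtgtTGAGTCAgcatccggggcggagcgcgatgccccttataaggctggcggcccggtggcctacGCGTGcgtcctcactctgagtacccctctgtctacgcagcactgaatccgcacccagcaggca
Gsta3: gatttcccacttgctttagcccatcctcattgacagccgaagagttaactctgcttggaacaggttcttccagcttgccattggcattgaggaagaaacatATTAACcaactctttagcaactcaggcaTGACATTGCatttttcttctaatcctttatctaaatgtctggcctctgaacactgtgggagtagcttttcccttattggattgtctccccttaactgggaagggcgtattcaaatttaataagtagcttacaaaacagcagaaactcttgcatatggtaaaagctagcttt
Sult1a1: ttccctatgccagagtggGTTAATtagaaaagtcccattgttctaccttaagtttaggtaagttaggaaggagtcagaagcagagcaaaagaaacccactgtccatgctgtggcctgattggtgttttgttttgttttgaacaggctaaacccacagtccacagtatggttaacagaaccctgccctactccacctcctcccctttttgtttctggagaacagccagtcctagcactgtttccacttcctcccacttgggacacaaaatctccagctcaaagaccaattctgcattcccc

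In the Gstp1 promoter the capitals mark GCGTG, the aryl hydrocarbon receptor core, 13 bases before the start, and TGAGTCA, an AP-1 site, 74 bases before it. The AP-1 site was added to the search after the sequences had been seen. In Gstp1 it is followed by gc, and TGAGTCAGC differs from the antioxidant core searched, TGACNNNGC, only in a G where that has C. It was therefore not counted as a match to TGACNNNGC. In Gsta3 they mark TGACATTGC, a match to the antioxidant core TGACNNNGC, 121 bases before the start, and ATTAAC, which is GTTAAT, an HNF1 motif, on the other strand, 149 bases before it. In Sult1a1 they mark GTTAAT, 232 bases before the start. The promoters of Gstt1, Ugt2b1 and Ugt1a7c held none of the motifs searched. Both strands were searched, and TGACNNNGC and TGAGTCA can overlap each other.

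Over all 32851 promoters of the same length, TGACNNNGC occurred in 12.4%, GCGTG in 32.4%, GTTAAT in 7.1%, TGAGTCA in 5.2% and CAAAGTCCA, the HNF4 site, in 0.475%. Among the 51 promoters of conjugation genes the shares were 5.88%, 23.5%, 15.7%, 11.8% and 1.96%. The 3 genes with a match to TGACNNNGC were Gsta3, which fell, and Gstm5 and Gstm7, whose log2 fold changes of -0.01 and 0.06 did not pass. A match describes these letters only and shows no binding.

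Among the glutathione transferases, Gstp1 (chromosome 19, 4035407 to 4037921, minus strand) rose. Its enzyme conjugates small electrophiles and binds signalling kinases, and in mouse liver it is known to be more abundant in males. It measured 69.7, 79.8 and 67.3 CPM in the f/f libraries and 174, 180 and 127 CPM in the ECKO libraries. All 3 ECKO libraries were high, and the lowest of them lay well above the highest f/f library. Group means were 72.3 ± 6.62 and 160 ± 28.9 CPM (n = 3 for both), or 1.15 on the log2 scale (SE 0.15, edgeR adjusted p = 0.0129). Without f/f library 3 the adjusted p was 0.0651 and without ECKO library 1 it was 0.0627, while the log2 fold change stayed between 1.06 and 1.296 whichever library was left out. The summed level of genes known to be male-biased in liver, given with the marker lists, was also separate between the groups, and its part here was not tested. The male-biased list was drawn up with earlier results on these data known. Of the FPKM of all 20 glutathione transferases, Gstp1 took 34.4%, 32.3% and 31.8% in f/f and 58.0%, 56.1% and 54.8% in ECKO. Gstm1 took 17.5 ± 1.62% in f/f and 10.4 ± 0.924% in ECKO, and the FPKM of the 20 together was 319 ± 61.3 in f/f and 346 ± 71.1 in ECKO.

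Gstp2, a neighbouring pi class gene, shares sequence with Gstp1: 33.7% of the 50-base runs in Gstp1 transcripts also occur in Gstp2. The sources used here do not say how the counting treated such reads. Gstp2 held 13, 19 and 17 counts in f/f and 9, 7 and 7 in ECKO, too few to be tested, and its ECKO to f/f ratio was 0.646 with a 95% counting interval of 0.376 to 1.08. Summed, Gstp1 and Gstp2 measured 70.3, 80.7 and 68.0 CPM in f/f and 174, 180 and 127 CPM in ECKO. That sum does not depend on how reads were divided between Gstp1 and Gstp2. It cannot show which of them shared reads came from, or whether such reads were dropped. A further copy, Gstp-ps, holds 20% of the Gstp1 runs and is not in the sum.

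The alpha class held the other large change among abundant glutathione transferases, in the opposite direction. Gsta3 (chromosome 1, 21240589 to 21265661, plus strand), whose enzyme is known for conjugating the reactive epoxide of aflatoxin, measured 73.8, 74.4 and 61.1 CPM in f/f and 42.9, 35.8 and 23.2 CPM in ECKO. The groups did not overlap, and ECKO library 3 was lowest. Group means were 69.8 ± 7.52 and 34.0 ± 10.01 CPM (n = 3 for both), or -1.04 on the log2 scale (SE 0.22, edgeR adjusted p = 0.0458). This call was at the edge of the threshold: leaving out any 1 of the 6 libraries ended it (adjusted p between 0.0629 and 0.118), as did limma-voom (0.0509), with values of -0.82 to -1.24 throughout the single omissions. Gsta4, which detoxifies the lipid peroxidation product 4-hydroxynonenal, measured 5.06, 7.08 and 5.34 CPM in f/f and 4.46, 4.71 and 2.87 CPM in ECKO, separate groups that did not pass (log2 fold change -0.54, edgeR adjusted p = 0.254).

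Gsta1 and Gsta2 share sequence with each other and with further genes: 90.5% of the 50-base runs of Gsta1 occur elsewhere, 75.7% in the predicted gene Gm3776, and 36% of those of Gsta2 occur in Gsta1. Gsta1 held 2, 7 and 7 counts in f/f and 0 in each ECKO library, at least 3.87-fold lower with a floor of 3 counts over the group (2.8-fold at the bound of the exact 95% counting interval). Gsta2 measured 1.25, 3.24 and 3.07 CPM in f/f and 1.33, 0.988 and 0.745 CPM in ECKO (log2 fold change -1.30, edgeR adjusted p = 0.137). Pooled, the pair gave 1.34, 3.59 and 3.36 CPM against 1.33, 0.988 and 0.745 CPM, with f/f library 1 at the ECKO level. The 4 Gsta genes summed to 80.2, 85.1 and 69.8 CPM in f/f and 48.7, 41.5 and 26.8 CPM in ECKO, nearly all of it Gsta3. Gm3776 and Gm10639, predicted genes that share runs with Gsta1 and Gsta2, are not in that sum.

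In the theta class, whose enzymes act on halogenated small molecules among other substrates, Gstt1 fell and its neighbour Gstt2 had almost equal means. Gstt1 (chromosome 10, 75783813 to 75798584, minus strand) measured 21.8, 21.2 and 21.5 CPM in f/f and 13.1, 14.1 and 10.3 CPM in ECKO. The f/f libraries were nearly identical and every ECKO library was lower. The log2 fold change was -0.78 (SE 0.14; edgeR adjusted p = 0.0314), and the call was lost without f/f library 2 (0.0715), f/f library 3 (0.115), ECKO library 1 (0.103) or ECKO library 3 (0.0870). Gstt2 measured 17.1, 16.1 and 16.0 CPM in f/f and 15.7, 17.6 and 16.6 CPM in ECKO, which is 0.02 on the log2 scale (SE 0.11, edgeR adjusted p = 0.926). Gstt3 measured 5.35, 6.53 and 6.88 CPM in f/f and 3.26, 4.42 and 2.92 CPM in ECKO, with separate groups but no call in edgeR (log2 fold change -0.82, adjusted p = 0.0901); DESeq2 called it lower. Gstt1 shares no 50-base run with another gene.

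No gene of the mu class, the largest class here with 7 tested genes, passed edgeR's test, while 3 were lower at an unadjusted p under 0.05, as were 13.1% of all genes, and DESeq2 called 1 lower. Gstm1, a major hepatic glutathione transferase, measured 120, 174 and 147 CPM in f/f and 106, 132 and 96.8 CPM in ECKO, with overlap (log2 fold change -0.40, SE 0.17, edgeR adjusted p = 0.208). Gstm2, the next most abundant mu class gene, measured 57.6, 79.7 and 69.0 CPM in f/f and 83.6, 99.0 and 72.1 CPM in ECKO (0.30, SE 0.16, adjusted p = 0.284). Gstm5, Gstm6 and Gstm7 were within 0.06 of 0 on the log2 scale, and Gstm4 had separate groups but did not pass (-0.73, adjusted p = 0.171).

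Gstm3 had the largest fitted difference of the mu class and the widest spread. It measured 3.39, 23.3 and 16.3 CPM in f/f (81, 474 and 394 counts) and 1.398, 2.27 and 0.803 CPM in ECKO (21, 39 and 14 counts). The ECKO libraries were all low, but f/f library 1 lay closer to them than to the other f/f libraries. The log2 fold change was -3.26 (SE 0.76; edgeR adjusted p = 0.0675). Without f/f library 1 it was -3.72 with an adjusted p of 0.00484, and 28.8% of the 50-base runs of Gstm3 occur in other genes.

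No gene of the kappa, omega and zeta classes passed in edgeR, at an adjusted or unadjusted p under 0.05, or in DESeq2. Gstz1, which is maleylacetoacetate isomerase of tyrosine breakdown, measured 43.3, 30.6 and 28.5 CPM in f/f and 47.1, 41.0 and 27.2 CPM in ECKO, with a log2 fold change of 0.17 (edgeR adjusted p = 0.693). That value was below 0 under total count scaling (-0.05) and on FPKM (-0.07). Gsto1, a dehydroascorbate reductase, measured 43.1, 44.5 and 46.6 CPM against 33.6, 50.8 and 36.2 CPM (-0.15, adjusted p = 0.591). Gstk1, the kappa class enzyme of mitochondria and peroxisomes, was at -0.04 on the log2 scale (SE 0.14, adjusted p = 0.871). The loci of Gsto1 and Gstz1 each overlap a gene on the other strand, Cfap43 and Pomt2. Gsto1 transcripts share no 50-base run with another gene, while 7.24% of the runs of Gstz1 occur in Pomt2. Reads from that shared part of Gstz1 cannot be told apart without a stated strand setting.

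**Figure D3:**
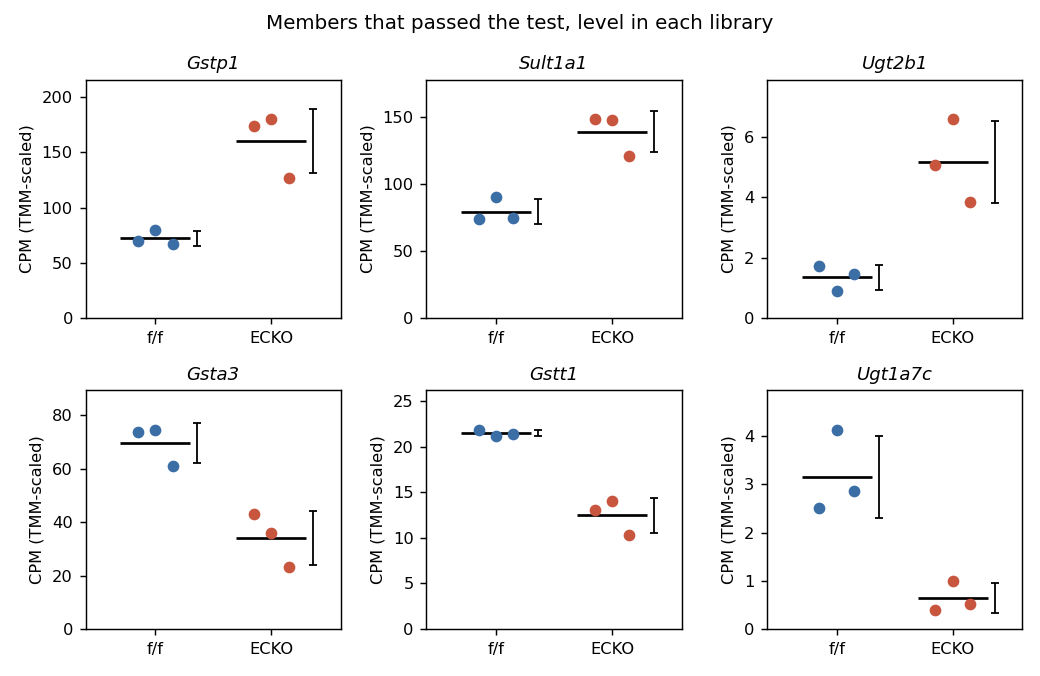
Level in CPM (TMM-scaled) of the 6 conjugation genes that passed the test, with 1 point per library, a line at the mean and a bar of 1 SD (n = 3 per group), each axis starting at 0. For each of the 6 genes the f/f and ECKO points do not overlap, as for Gstp1 with 79.8 CPM in its highest f/f and 127 CPM in its lowest ECKO library.

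The 2 glucuronosyl calls were in different families and opposite in direction. Of the 5 tested UGT2B genes, which glucuronidate steroids and bile acids among others, 1 passed and rose. All 3 ECKO libraries lay above all 3 f/f libraries for 3 of the 5 (60%, against 15.7% of all genes). They lay below them for 1 (20%, against 15.2%). Of the 3 that were higher, 2 did not pass in edgeR. The UGT1A genes, which include the bilirubin enzyme Ugt1a1, held the gene that fell. Summed over 7 genes, UGT2B measured 13.9, 10.4 and 13.1 CPM in f/f and 22.1, 31.7 and 18.0 CPM in ECKO. Summed over 8 genes, UGT1A measured 11.04, 10.96 and 11.4 CPM in f/f and 7.26, 9.35 and 5.33 CPM in ECKO. Neither pair of CPM sums overlapped between the groups, but on FPKM the UGT1A sums did (3.34, 3.57 and 4.33 against 2.13, 3.67 and 1.91), and the difference between the families was not tested. The highest value of any glucuronosyl gene in any library was 9.94 CPM.

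Ugt2b1 (chromosome 5, 86916638 to 86926530, minus strand) rose. It measured 1.71, 0.884 and 1.45 CPM in f/f and 5.06, 6.57 and 3.84 CPM in ECKO. The lowest ECKO library lay well above the highest f/f library. Group means were 1.35 ± 0.424 and 5.16 ± 1.36 CPM (n = 3 for both), or 1.92 on the log2 scale (SE 0.33, edgeR adjusted p = 0.0297). It kept an adjusted p under 0.05 only when f/f library 1 was left out (0.0200); each other single omission gave 0.0573 to 0.110, with log2 values of 1.70 to 2.13. Ugt2b1 shares no 50-base run with another gene. Its share of the FPKM of the 16 glucuronosyl transferases was 5.74 ± 0.828% in f/f and 14.9 ± 1.06% in ECKO.

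Ugt2b5 and Ugt2b36 also had separate groups but did not pass in edgeR, while DESeq2 called both higher (adjusted p = 0.00537 and 0.00896). Ugt2b5 measured 2.80, 1.72 and 2.94 CPM in f/f and 5.59, 9.94 and 4.47 CPM in ECKO (log2 fold change 1.42, SE 0.36, edgeR adjusted p = 0.0704). Ugt2b36 measured 3.76, 2.31 and 3.73 CPM in f/f and 5.99, 9.06 and 6.02 CPM in ECKO (1.10, SE 0.28, adjusted p = 0.0695). In both, ECKO library 2 was highest and f/f library 2 lowest. Ugt2b38, outside the rule for named genes and picked after its values were seen, held 1, 0 and 1 counts in f/f and 20, 16 and 5 in ECKO, a ratio of 28.2 with a 95% counting interval of 7.33 to 241, and DESeq2 called it higher. It shares 34.1% of its 50-base runs with Ugt2b5. Pooling Ugt2b5, Ugt2b37 and Ugt2b38 gave 2.93, 1.72 and 2.98 CPM in f/f and 6.99, 11.5 and 4.76 CPM in ECKO. Ugt2b34 pointed the other way, with separate groups and a log2 fold change of -0.42 that did not pass (adjusted p = 0.296), and Ugt2b35 had -0.35 with overlap. Ugt2a3, of the related UGT2A family, had a value of -0.07 (SE 0.41, adjusted p = 0.935), which was above 0 with limma-voom (0.01) and when f/f library 1 was left out (0.46).

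The UGT1A genes of the mouse are alternative first exons joined to shared 3′ exons, so 52.1% to 80.2% of the 50-base runs of each occur in others, and the sources used here do not say how reads were divided among them. Ugt1a7c (chromosome 1, 88095062 to 88220002, plus strand) fell. It measured 2.51, 4.13 and 2.86 CPM in f/f and 0.399, 0.988 and 0.516 CPM in ECKO, from 60, 84 and 69 against 6, 17 and 9 counts. All ECKO libraries were low, and the highest of them held less than the lowest f/f library. The log2 fold change was -2.29 (SE 0.41; edgeR adjusted p = 0.0314), and the call was lost without f/f library 2 (0.0717), f/f library 3 (0.105), ECKO library 1 (0.106) or ECKO library 3 (0.102). Its mean of 0.413 FPKM kept it out of the test on FPKM with a minimum mean of 1.

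Ugt1a6b measured 1.84, 1.92 and 2.61 CPM in f/f and 1.33, 0.232 and 0.688 CPM in ECKO, separate groups that did not pass (log2 fold change -1.51, SE 0.53, edgeR adjusted p = 0.143). Ugt1a1, the enzyme that makes bilirubin excretable, measured 2.68, 1.08 and 3.36 CPM in f/f and 3.06, 3.72 and 2.06 CPM in ECKO (0.31, SE 0.43, adjusted p = 0.699). Its spread covered the difference, and without f/f library 2 the value was -0.04. Ugt1a9 and Ugt1a6a, at 0.35 and -0.76, did not pass. Among the untested genes of the family, Ugt1a5 held 51 counts in f/f and 10 in ECKO, a ratio of 0.27 (95% counting interval 0.122 to 0.538), with 35 of the f/f counts in library 1. Ugt1a8 held 9, 0 and 6 counts in f/f and 0, 14 and 0 in ECKO (ratio 1.29, 95% counting interval 0.575 to 2.86). Ugt1a10 held 8, 3 and 0 counts in f/f and 11, 4 and 0 in ECKO (1.88, interval 0.806 to 4.52).

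The sulfotransferases were led by Sult1a1, which rose. Sult1a1 (chromosome 7, 126672865 to 126676432, minus strand) is the main enzyme for sulfating small phenols. It measured 73.9, 90.5 and 74.5 CPM in f/f and 148, 148 and 121 CPM in ECKO. The groups were clearly apart, with ECKO library 3 lowest among the high ones. Group means were 79.6 ± 9.38 and 139 ± 15.4 CPM (n = 3 for both), or 0.81 on the log2 scale (SE 0.13, edgeR adjusted p = 0.0233). Under total count scaling the value was 0.56 with an adjusted p of 0.0632, and on FPKM with limma the adjusted p was 0.121. Leaving out f/f library 3 (0.102), ECKO library 1 (0.0927) or ECKO library 2 (0.0520) also ended the call. Sult1a1 overlaps Ccdc101 on the other strand, which held 1454 counts in all 6 libraries. Of the FPKM of the 10 sulfotransferases, Sult1a1 took 70.5 ± 6.89% in f/f and 79.9 ± 2.84% in ECKO.

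Sult2a8, a sulfotransferase of bile acids, measured 23.5, 12.2 and 13.9 CPM in f/f and 40.0, 31.1 and 20.2 CPM in ECKO. Its groups overlapped because f/f library 1 exceeded ECKO library 3, and it did not pass (log2 fold change 0.88, SE 0.32, edgeR adjusted p = 0.161). Sult1d1, which acts on catecholamines, measured 7.82, 7.71 and 7.04 CPM in f/f and 6.59, 5.29 and 5.62 CPM in ECKO, with separate groups and no call (-0.37, SE 0.17, adjusted p = 0.239). Sult1b1 and Sult5a1, at 0.04 and -0.49, did not pass either.

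Sult2a1 and Sult2a2, the hydroxysteroid sulfotransferases that are known to be far more abundant in female mouse liver, had counts in f/f libraries and none in ECKO. Sult2a1 held 7, 7 and 32 counts in f/f and 0 in each ECKO library, at least 11.1-fold lower with a floor of 3 counts over the group (8.7-fold at the bound of the exact 95% counting interval). Sult2a2 held 19, 12 and 64 counts in f/f and 0 in each ECKO library, at least 23-fold lower by the same floor (18.3-fold by the interval). For both, f/f library 3 held most of the counts. The 15 female-biased liver genes listed with the markers were lower in sum in every ECKO library, and their part here was not tested. That list was drawn up with earlier results on these data known, and 5 of its genes had enough counts to be tested. Sult2a2 did not pass in edgeR (adjusted p = 0.0599; 0.0588 to 0.125 with 1 library left out). It passed with DESeq2 (8.14e-05), limma-voom (0.0313), total count scaling (0.0162), no filterByExpr (0.0476) and log2(FPKM + 0.1) (0.00837), but not with log2(FPKM + 1) (0.0799). Sult2a1 had too few counts for edgeR's filter, and DESeq2 called it lower. They share sequence, with 41.3% of the 50-base runs of Sult2a2 found in Sult2a1, and pooled they held 26, 19 and 96 counts against 0. Sult1c2 held 2 counts in f/f and 12 in ECKO (ratio 8.26, 95% counting interval 1.84 to 76), and Sult4a1 held 13 and 2 (0.212, interval 0.0232 to 0.936). Sult2b1 held 15 and 12.

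**Figure D4:**
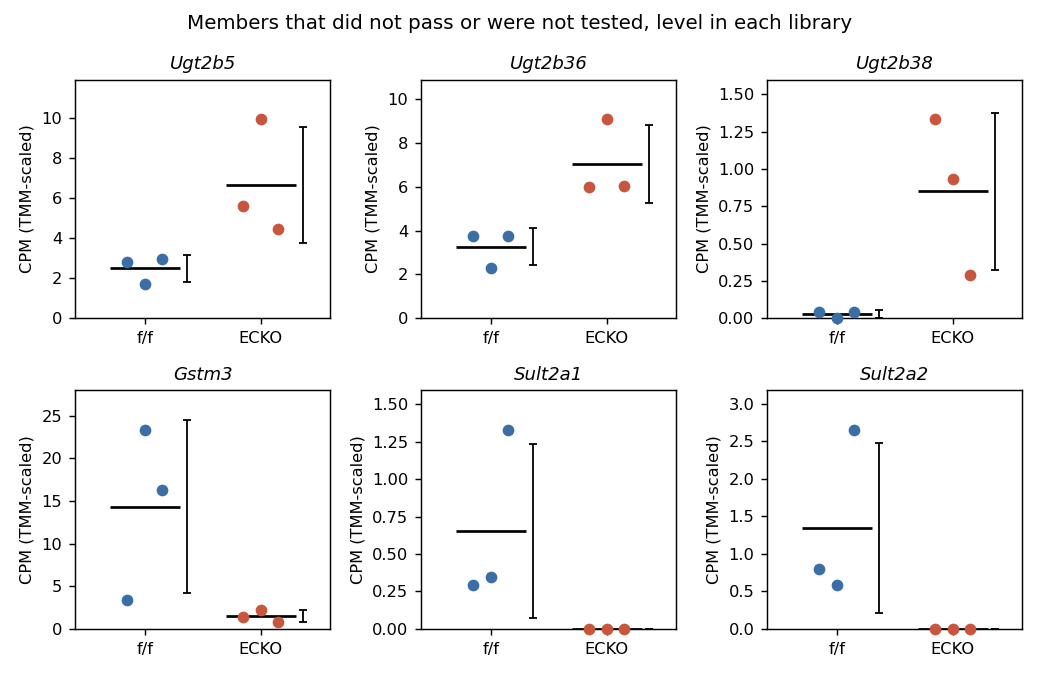
Level in CPM (TMM-scaled) of 6 conjugation genes that did not pass in edgeR (Ugt2b5, Ugt2b36, Gstm3, Sult2a2) or were not tested (Ugt2b38, Sult2a1), with 1 point per library, a line at the mean and a bar of 1 SD (n = 3 per group), cut off at 0. Every ECKO library is at 0 for Sult2a1 and Sult2a2, and for Gstm3 f/f library 1, at 3.39 CPM, lies near the ECKO libraries.

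The remaining symbols lay below the minimum. Of the 13 genes with fewer than 10 counts, 9 had 0 counts in all 6 libraries, and Sult3a1, Sult2a7, Gstt4 and Sult2a5 had 1, 2, 4 and 6. Just above the minimum were Ugt2b37 with 13, Sult1c2 with 14, Sult4a1 with 15 and Gsta1 with 16 counts. Among the untested genes with at least 10, Gsto2 held 11 counts in each group.

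Genes that supply, accompany or carry away the conjugates mostly did not pass. Of 18 tested genes of glutathione supply, 1 rose by edgeR. Of 8 genes of UDP-sugar synthesis and transport, glucuronide cleavage and related UDP-sugar transferases 1 also rose, with none lower in either list. At an unadjusted p under 0.05 the glutathione list had 2 higher and 3 lower, and the UDP-sugar list 1 and 2. Over all genes tested, 10.4% were higher and 13.1% lower at that threshold. DESeq2 called 2 higher and 3 lower in the glutathione list, and 1 and 0 in the UDP-sugar list. Over all 15334 genes it tested, DESeq2 called 457 higher and 1061 lower. Gclc, the catalytic subunit of the enzyme that limits glutathione synthesis, measured 44.0, 52.2 and 45.9 CPM in f/f and 72.0, 69.8 and 69.4 CPM in ECKO (log2 fold change 0.57, edgeR adjusted p = 0.0285). Slc35b1, an endoplasmic reticulum protein of the nucleotide sugar transporter family, measured 40.9, 39.6 and 40.6 CPM against 55.8, 66.5 and 53.5 CPM (0.54, edgeR adjusted p = 0.0411). Both had separate groups in CPM but overlapped in FPKM, and both calls were lost on FPKM (adjusted p = 0.277 and 0.361), under total count scaling (0.231 and 0.286) and without f/f library 3 or any 1 ECKO library (0.0512 to 0.115 and 0.0679 to 0.144). That of Slc35b1 was also lost without f/f library 2 (0.11) and with limma-voom (0.0535).

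By edgeR none of 13 genes for PAPS supply and sulfatases passed, nor did any of 15 other conjugation and detoxification enzymes or of 8 other glutathione transferases of the microsomal and further families. At an unadjusted p under 0.05 these lists had 4, 5 and 1 genes, beside 23.5% of all genes, and DESeq2 called 0, 1 and 0. Of 15 tested transporters of conjugates 1 rose by edgeR. At an unadjusted p under 0.05 the transporters had 3 higher and 1 lower, beside 10.4% and 13.1% of all genes. DESeq2 also called 3 and 1 of the transporters. The gene that rose, Slco2b1, an organic anion uptake carrier, measured 46.3, 60.4 and 66.7 CPM in f/f. In ECKO it measured 168, 153 and 149 CPM (1.44, edgeR adjusted p = 0.00853). Of 19 targets of NRF2 outside the transferases, Gclc alone passed in edgeR (4 higher and 0 lower at an unadjusted p under 0.05; DESeq2 called 2 higher), and the list's median was 0.19. None of 15 regulators of xenobiotic response passed (3 higher and 2 lower at an unadjusted p under 0.05; 1 and 1 by DESeq2), with Nfe2l2, which encodes NRF2, at 0.11 (adjusted p = 0.488) and Ahr at 0.09 (0.771). The medians of these lists lay between -0.02 and 0.19, beside 0.01 for all genes.

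Several marker lists of other cells moved between the same libraries, and their part in the conjugation results was not tested. Over all genes, 10.4% were higher and 13.1% lower at an unadjusted p under 0.05. DESeq2 called 457 higher and 1061 lower of 15334 genes. By edgeR, 1 of 29 hepatocyte markers was lower (Cyp3a11) and none higher (3 higher and 2 lower at an unadjusted p under 0.05; 2 and 2 by DESeq2), with a median of 0.45, and they summed to 2741, 1407 and 1696 CPM in f/f and 2466, 3030 and 1633 CPM in ECKO. Of 13 pericentral hepatocyte genes 4 were lower (Cyp3a11, Rgn, Lect2 and Aldh1a1), and of 15 periportal genes none passed (4 higher and 1 lower at an unadjusted p under 0.05; 3 higher by DESeq2), with medians of -0.47 and 0.52. In sum the pericentral list held 1016, 1050 and 1022 CPM in f/f and 1068, 1078 and 1041 CPM in ECKO. The periportal list held 512, 213 and 254 CPM in f/f and 719, 529 and 377 CPM in ECKO. Both sums overlapped between the groups. Of 20 stellate cell markers 9 were lower (16 at an unadjusted p under 0.05; 16 by DESeq2), with sums of 2312 to 3720 CPM in f/f and 1156 to 1695 CPM in ECKO. Of 11 cholangiocyte markers 1 (Cldn4) was lower, while all 11 were below 0, with a median of -1.20 (10 lower at an unadjusted p under 0.05; 8 by DESeq2) and sums of 233 to 646 CPM in f/f and 152 to 203 CPM in ECKO. The Cldn4 call was kept without f/f library 1 but lost in each other single omission (edgeR adjusted p = 0.0613 to 0.108). Of 20 LSEC markers 1 (Pecam1) was higher (7 at an unadjusted p under 0.05 and 4 by DESeq2). Its edgeR adjusted p was 0.0456, and the call was lost whichever library was left out (0.0554 to 0.164). Limma-voom (0.0509) and total count scaling (0.378) also ended the Pecam1 call. Of 12 Kupffer cell markers none passed (2 higher and 2 lower at an unadjusted p under 0.05; 1 and 1 by DESeq2), and of 10 other leukocyte markers 2 were lower (8 at an unadjusted p under 0.05; 7 by DESeq2). Of 7 erythroid and platelet markers 1 (Alas2) was higher and none lower, while the other 6 were below 0, with a median of -1.42 for the list (4 lower at an unadjusted p under 0.05; 2 by DESeq2).

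Genes known to be male-biased in mouse liver were higher in the same libraries as Gstp1, and their part in the conjugation results was not tested either. Of 14 tested, 9 were higher and none lower by edgeR (13 and 0 at an unadjusted p under 0.05, and 13 and 0 by DESeq2), with a median of 3.34, and together they held 93.3, 47.4 and 61.4 CPM in f/f and 410, 458 and 264 CPM in ECKO. Of 5 tested female-biased genes 1 (Acot3) was lower (5 at an unadjusted p under 0.05; 3 by DESeq2, untested genes included), and the 15 listed summed to 25.2, 34.7 and 31.4 CPM against 16.7, 17.0 and 15.8 CPM. The Acot3 call was kept without f/f library 1 or ECKO library 2. Each other single omission ended it (edgeR adjusted p = 0.069 to 0.131). Cyp2b9, a female-biased gene, was at 0 in every ECKO library. Neither list holds a conjugation gene, and both were drawn up with earlier results on these data known. Ddx3y, on the Y chromosome, measured 45.7 to 78.9 CPM in all 6 libraries, and Xist, which female cells express, 0 to 0.0983 CPM, under the 3-count floor. By these genes all 6 libraries, in both groups, read as male, although the sources used here do not state the sex.

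**Figure D5:**
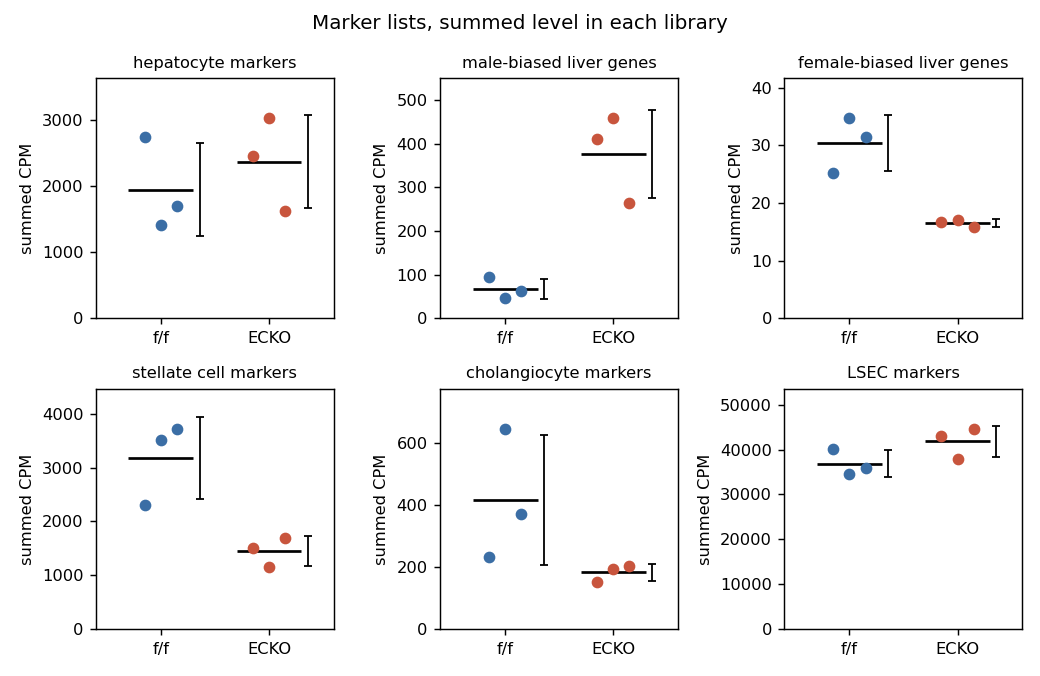
Summed CPM of 6 marker lists, with 1 point per library, a line at the mean and a bar of 1 SD (n = 3 per group), each axis starting at 0. The male-biased list is separate between groups (47.4 to 93.3 CPM in f/f, 264 to 458 CPM in ECKO), as are the female-biased, stellate and cholangiocyte lists, while the hepatocyte and LSEC lists overlap.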

How the data were processed

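Per the labels' protocols, mRNA was separated from total RNA, fragmented and made into cDNA libraries. The submitters' processing notes name HISAT2 2.0.4 and StringTie 1.3.0, without roles, and the mm10 and GRCm38 builds. No counter, annotation release or strand setting is given in the sources used here. The authors deposited raw counts per gene, per the file headers, and FPKM, per the file headers scaled by gene length and library. No columns were left out (0).

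The count test was edgeR 4.0.16 under R 4.3.3. After filterByExpr (at least 10 counts, 15 in total) and TMM scaling, 13692 genes were compared by genotype alone with the robust quasi-likelihood F-test, two-sided, and Benjamini-Hochberg adjusted p-values under 0.05 were called. CPM are TMM-scaled, with SD over 3 libraries. SE is the absolute log2 fold change over the square root of F. FPKM were tested with limma 3.58.1 on log2(FPKM + 1) or log2(FPKM + 0.1), which understates changes of low genes. DESeq2 1.42.0, limma-voom, other scalings and filters, a replicate block and the omission of each library were alternatives. The procedure was tested on simulated data. Library totals of 17171850 to 25062755 counts set the 3-count floors, and ratios of low counts carry exact 95% intervals, all covering counting error only.

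Genes named with values in every library were those past the threshold, the 5 with the highest mean FPKM in each superfamily and the 4 tested with the largest change in each direction; others were picked after their values were seen. The members, gene lists and markers were chosen with earlier results of these data known. Of 20 lists, Sts and Tf are not analysed here. Shared sequence is the share of 50-base runs of a gene's GENCODE M21 transcripts that occur in another gene. Promoters are from RefSeq (GRCm38.p6), 250 bases before to 50 after the start. Gene coordinates are those of the deposited table (mm10/GRCm38).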

Additional observations from a re-analysis of the deposited data

How the results depend on the processing

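Of 300 comparisons of a named gene with an alternative, 244 kept direction and side of the threshold, 35 lost the call, 11 gained it and 10 changed sign, all 10 in genes that did not pass. These were Gstz1 (total count scaling -0.0542; FPKM -0.0737 with a pseudocount of 1, with or without the filter, and -0.078 with 0.1), Ugt1a1 (-0.0388 without f/f library 2, and up to 0.643 without f/f library 3) and Ugt2a3 (0.0147 with limma-voom, 0.0179 with the replicate block, and from -0.323 without f/f library 2 to 0.46 without f/f library 1). Against 3 conjugation genes higher and 3 lower, DESeq2 called 6 and 7, total count scaling called 2 and 5, and FPKM without a filter called 0 and 0. Leaving out 1 library gave 0 to 3 higher and 0 to 4 lower, with 0 in either direction without f/f library 3 or ECKO library 1. Over all genes, 170 were higher and 382 lower. Total count scaling gave 63 and 1209, DESeq2 457 and 1061, limma-voom 191 lower, FPKM 28 higher with a pseudocount of 1 and 30 with 0.1, and FPKM without a filter 17 and 119. Single omissions gave 14 to 246 higher and 21 to 766 lower, where an omission also leaves fewer samples. The cause of the other changes was not tested.

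The labels do not say whether a replicate number pairs the libraries. Deviations of libraries 1, 2 and 3 from their group means correlated at 0.095, 0.152 and -0.052 across genotypes. The f/f libraries 1 and 2 correlated best with their own number, and f/f library 3 did not. So few libraries cannot decide whether the numbers mark pairs. With the replicate block 131 genes were higher and 285 lower, and 2 and 4 conjugation genes. Ugt2b1 then had an adjusted p of 0.0539 and Sult2a2 of 0.0495 in edgeR, and Slc35b1 of 0.0621. Depth limits the 12 described genes that were not tested, all with 13 to 72 counts.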

Other observations

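Further genes that handle conjugates or foreign compounds, picked after their values were seen, had separate groups without passing the test. Abcg2, an exporter of sulfate and other conjugates, measured 60.8 ± 9.82 CPM in f/f and 94.2 ± 11.7 CPM in ECKO (n = 3 each; log2 fold change 0.63, edgeR adjusted p = 0.0588). Abcb1b, a drug exporter, measured 7.87 ± 1.03 CPM in f/f and 4.94 ± 0.688 CPM in ECKO (-0.67, adjusted p = 0.0953). Nat2, an arylamine acetyltransferase, measured 3.40 ± 0.294 and 6.01 ± 0.887 CPM (0.83, adjusted p = 0.0675). Nr1h4, which encodes the bile acid receptor FXR, measured 23.7 ± 3.17 and 14.9 ± 2.04 CPM (-0.68, adjusted p = 0.0535), and Hnf4a, a hepatocyte factor, measured 25.4 ± 2.99 and 43.7 ± 13.1 CPM (0.78, adjusted p = 0.0929).

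Of the 7 pseudogene symbols left out of the set, Gstm2-ps1 held 175, 264 and 289 counts in f/f and 97, 139 and 78 in ECKO, and the other 6 held 0 counts in all libraries.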
